A study of Mus musculus with 12 samples.

Results

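The mitochondrial ribosomal protein genes were examined in the livers of wild-type mouse fetuses and of fetuses lacking the histone variants macroH2A1 and macroH2A2. Members were all genes whose platform symbol begins with Mrpl or Mrps followed by a number. Where a gene had several probe sets, the one that was brightest on average was used, which gave 77 of the 19935 genes measured by a probe set of their own. By the known structure of the particle, 50 members were placed in the large subunit and 26 in the small subunit, and Mrps36 was left unassigned. Mrpl53 also has a symbol of this form but shares its probe set with Ccdc142, so no value is given for it.

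Both groups were male fetuses of the strain 129/S6 (taconic), carried by wild-type recipient females after embryos of both genotypes had been mixed before transfer. Livers were taken at 18.5 days post coitum, with 6 arrays for the wild type and 6 for the macroH2A1/2 double knockout, and the alleles and the cells in which they are deleted were not described further. RNA came from whole liver, so fewer cells of a type and less RNA per cell cannot be told apart. The labels do not say which fetuses shared a recipient or a litter. The p-values set each difference against the spread of these 12 samples within genotypes and take the samples as independent. Values are the deposited log2 expression values per probe set, given as mean ± SD over 6 arrays, and differences are double knockout minus wild type with their SE.

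Mitochondria carry their own ribosome, which translates the few proteins encoded by mitochondrial DNA, all of them subunits of the respiratory chain and ATP synthase. Its RNA comes from the mitochondrial genome, whereas every one of its proteins is encoded in the nucleus, made in the cytosol and imported. Some of these proteins descend from bacterial ribosomal proteins and others are found only in mitochondrial ribosomes. MacroH2A proteins replace the ordinary histone H2A in part of the chromatin and carry a large additional macro domain.

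The promoters of some members are shown first, since the members lie on many chromosomes and these regions could be searched for motifs of factors known to act on mitochondrial genes. RefSeq promoter windows on GRCm38.p6, from 250 bases before to 50 bases after the start, were matched for 68 of the 77 members. The sequences run 5′ to 3′ on the gene's strand over 150 bases, of which the last 30 are transcribed. Capitals mark the searched motifs: GCGCATG, a core of the site of nuclear respiratory factor 1 (NRF1), CCGGAAG, a core of the sites of ETS-family factors, and AAGATGG, a core of the YY1 site, each on either strand. Mrps21 (chr3:95871485-95871634, minus strand) and Mrpl52 (chr14:54426789-54426938, plus strand) are the 2 members with the smallest p among those with a higher mean and a motif in their window. Mrpl49 (chr19:6057726-6057875, minus strand) and Mrpl36 (chr13:73330889-73331038, plus strand) are the 2 on the lower side. Mrpl32 (chr13:14613008-14613157, minus strand) was added after its NRF1 matches were seen, 5 in the whole window and 4 in the stretch printed, of which the first 2 overlap.
Mrps21: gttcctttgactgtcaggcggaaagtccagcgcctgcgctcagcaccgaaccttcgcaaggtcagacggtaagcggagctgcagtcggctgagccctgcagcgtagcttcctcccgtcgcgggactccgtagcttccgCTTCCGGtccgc
Mrpl52: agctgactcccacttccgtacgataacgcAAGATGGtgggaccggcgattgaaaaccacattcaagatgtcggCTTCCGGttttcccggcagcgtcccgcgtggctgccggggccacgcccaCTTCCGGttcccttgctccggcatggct
Mrpl49: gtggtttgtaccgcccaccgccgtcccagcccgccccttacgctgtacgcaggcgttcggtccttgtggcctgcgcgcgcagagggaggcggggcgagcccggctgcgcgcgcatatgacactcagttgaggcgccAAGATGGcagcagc
Mrpl36: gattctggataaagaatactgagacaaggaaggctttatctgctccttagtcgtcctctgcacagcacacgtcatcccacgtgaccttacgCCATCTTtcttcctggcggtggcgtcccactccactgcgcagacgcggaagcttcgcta
Mrpl32: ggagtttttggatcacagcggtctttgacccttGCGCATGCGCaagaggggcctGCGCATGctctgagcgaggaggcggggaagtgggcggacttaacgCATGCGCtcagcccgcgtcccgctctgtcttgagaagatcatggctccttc
In these stretches Mrps21 held 1 ETS core at bases 19 to 25 from the start. Mrpl52 held 1 YY1 core and 2 ETS cores, and Mrpl49 and Mrpl36 held 1 YY1 core each. A match is a run of letters and does not show that the factor binds there.

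Over the 74 windows of these 68 members, the ETS core was present in 25 (33.8%), against 8.86% of the 32851 windows of all genes and 11.6% of the 21263 windows of protein-coding genes. The YY1 core was present in 13 windows (17.6%), against 6.34% of all windows and 6.24% of those of protein-coding genes. The NRF1 core was present in 8 windows (10.8%), against 3.91% and 4.8%. At least 1 of the 3 cores was present in 37 windows (50%), against 17.5% and 20.5%, so the others held none of them. The windows with an NRF1 core belonged to Mrpl9, Mrpl10, Mrpl17, Mrpl22, Mrpl32, Mrpl33, Mrpl39 and Mrps18b. The median GC content of the members' windows was 58.5%, against 56.3% for protein-coding windows, and the median number of CG pairs was 21 against 13. The higher shares of motifs therefore stand beside a higher CG content, and the part of base composition in them was not tested.

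Many members start close to another gene on the opposite strand. Of the 68 members with a promoter entry, 21 (30.9%) had a divergent protein-coding start within 500 bases, against 1317 of 17492 protein-coding genes (7.53%). Mrpl46 and Mrps11, a large and a small subunit gene, start 42 bases apart, and the stretch around both starts (chr7:78783060-78783160, plus strand, chosen after it was seen) held none of the motifs.
Mrpl46 and Mrps11: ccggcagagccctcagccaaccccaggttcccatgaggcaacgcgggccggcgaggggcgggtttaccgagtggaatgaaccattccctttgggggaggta
The other neighbours were not sorted by function, and those named here were picked because they serve mitochondria. Mrps12 starts 147 bases from Sars2, the mitochondrial seryl-tRNA synthetase, and Mrpl43 starts 116 bases from Twnk, the mitochondrial DNA helicase. Mrpl47 starts 308 bases from Ndufb5, a complex I subunit.

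The deletion was visible at Macroh2a1, which was 10.36 ± 0.13 in the wild type and 9.59 ± 0.06 in the double knockout. It fell by 0.77 on the log2 scale (SE 0.06), with an adjusted p of 3.5e-05 (limma, Benjamini-Hochberg over 19935 genes), and the groups did not overlap. Macroh2a2 was 9.30 ± 0.15 and 9.21 ± 0.28 (limma, adjusted p = 0.99), so its probe set did not separate the genotypes, and where it lies relative to the deletion was not stated. The hepatocyte markers measured, 9 of 10, averaged 13.07 ± 0.05 and 13.01 ± 0.14, near the top of the table's range of 3.73 to 14.45. Array medians lay between 7.56 and 7.61. The interquartile range was narrowest on wild-type replicate 6 and on replicates 3, 5 and 6 of the double knockout (2.77 to 2.89), against 2.92 to 3.02 on the others.

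No mitochondrial ribosomal protein gene passed the test between genotypes. With limma, 0 of 77 members had an adjusted p under 0.05, against 3 of all 19935 genes (0.0150%), and the lowest adjusted p of a member was 0.99. At an unadjusted p under 0.05 there were 2 members, Mrpl55 and Mrps21, both higher in the double knockout, which is 2.60% of members against 3.93% of all genes in either direction and 2.64% in the higher direction. None was lower at that level, against 1.28% of all genes. In 0 members did the 6 values of one genotype lie wholly above or below those of the other, against 0.211% of all genes.

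The differences were small, and so was their error. They ranged from -0.11 for Mrps30 to 0.14 for Mrps26, which is 1.08-fold lower to 1.10-fold higher. The median SE was 0.058 and the median half-width of the 95% interval was 0.12. All 77 intervals, taken gene by gene and without adjustment, lay within a 1.5-fold change either way. All but that of Mrps26, whose upper bound was 0.33, lay within 1.25-fold. The lowest bound was -0.28, for Mrpl49.

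**Figure D1:**
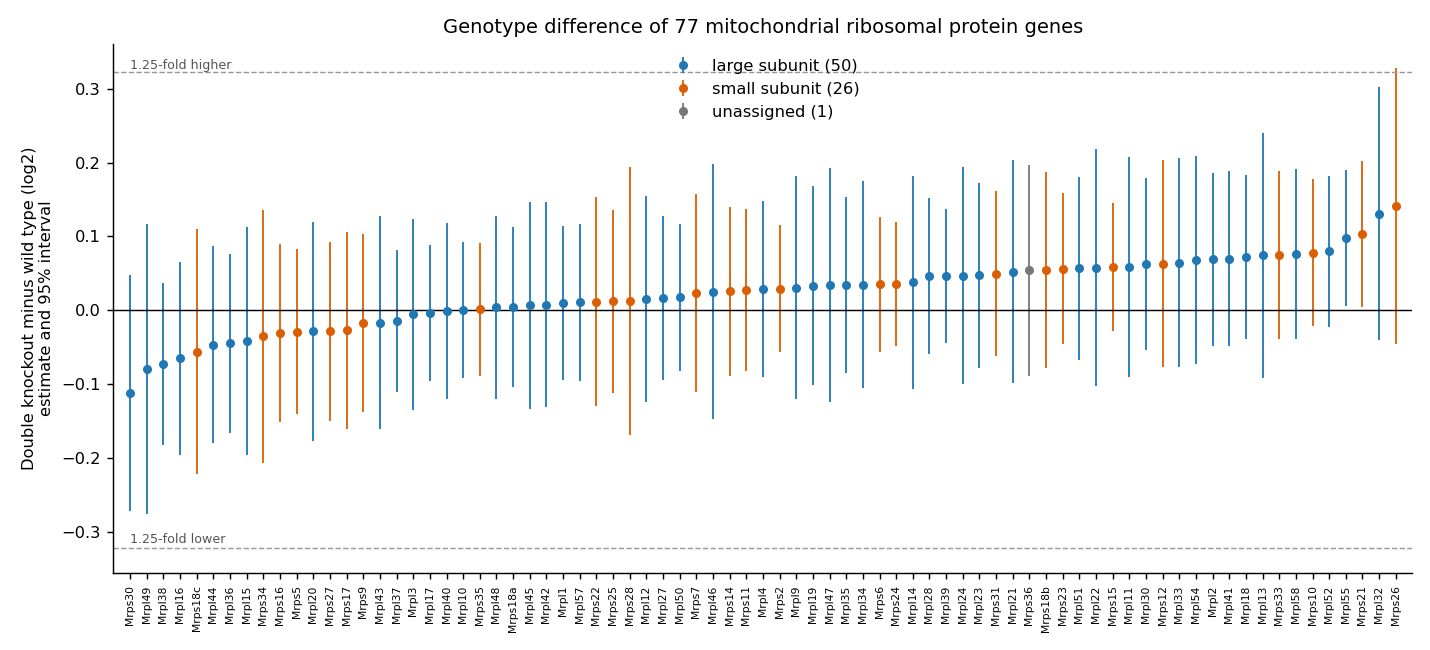
Difference between double knockout and wild type for each of the 77 members (log2, y axis), ordered from lowest to highest, with points coloured by subunit and bars giving the 95% interval from limma. The estimates run from -0.11 (Mrps30) to 0.14 (Mrps26), all intervals but those of Mrpl55 and Mrps21 include 0, and only the interval of Mrps26 crosses a dashed line at 1.25-fold.

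The mean was higher in the double knockout for 57 members and lower for 20. That is 74.0% higher against 59.0% of all genes, with a median of 0.029 against 0.013. The counts moved most with 1 array: without wild-type replicate 6, 38 members were higher and 39 lower, and the median was -0.0025. In that fit 2 of the 77 members, Mrps30 and Mrps18c, had an unadjusted p under 0.05 (limma), both lower. Of all 19935 genes, 6.1% did in either direction and 571 in the lower direction. Of the 57 higher members, 19 turned lower without that array, and none of the 20 lower members turned higher. Among all genes above the median gene level of 7.81, a group that held 71 of the 77 members, 46.2% were higher with all arrays and 34.6% without wild-type replicate 6. Without the 4 arrays of narrower spread together, wild-type replicate 6 among them, 53 members were higher and 24 lower, with a median of 0.032. Of the 71 members among these brighter genes, 76.1% were higher with all arrays, above the 46.2% of the brighter genes. Their share was also above it without wild-type replicate 6 (50.7% against 34.6%) and without the 4 arrays (70.4% against 55.3%). The share over all 77 members was above that of all genes with all arrays (74.0% against 59.0%) and without the 4 arrays (68.8% against 55.9%). Without wild-type replicate 6 it was below that of all genes (49.4% against 54.2%), as was the median (-0.0025 against 0.0070). These differences were not tested.

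**Figure D2:**
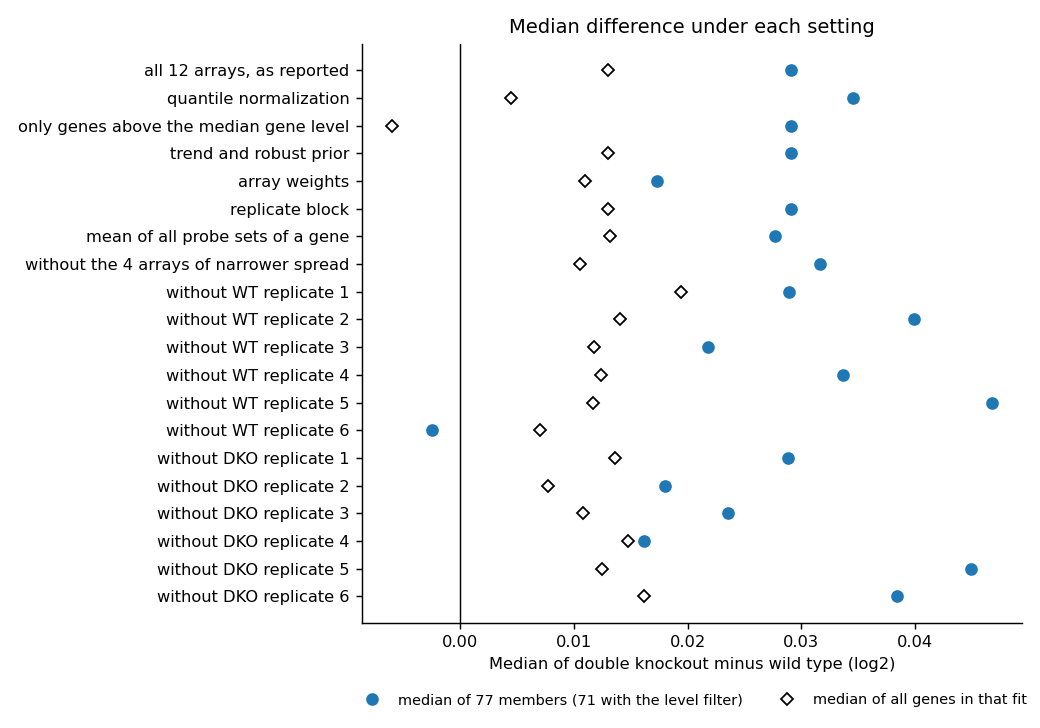
Median difference (double knockout minus wild type, log2) of the members (filled circles) and of all genes in the same fit (open diamonds), for all 12 arrays and each alternative setting. The members' median lies above 0 in every setting shown except without wild-type replicate 6, where it is -0.0025 and that of all genes is 0.0070.

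Wild-type replicate 6 stood apart for the members as a group. Relative to each gene's own mean over the 12 arrays, the members averaged -0.16 on it, against -0.040 to 0.049 on the other wild-type arrays. It was below the gene's mean for 74 of 77 members (96.1%), against 59.3% of all genes and 74.6% of genes above the median level. It held the lowest of all 12 values for 42 members (54.5%), against 20.2% of all genes and 32.6% of the brighter ones, and the highest value for none. The large subunit averaged -0.17 on it and the small subunit -0.14, so both subunits were low together. After quantile normalization, which gives all arrays the same distribution, the members still averaged -0.11 and 33 of them had their lowest value there.

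On the double-knockout side, replicate 5 averaged -0.071 and replicate 6 -0.038, while the other 4 arrays averaged 0.024 to 0.064. Replicate 5 held the lowest of the 6 double-knockout values for 35 of 77 members, against 24.1% of all genes. Of all 12 values, it held the lowest for 13 members (16.9%), against 15.3% of all genes and 24.0% of genes above the median level. Replicate 6 held the lowest of all 12 for 4 members (5.2%), against 8.5% and 11.8%. Genes above the median level were low on both arrays too, averaging -0.065 on replicate 5 and -0.055 on replicate 6. The members' mean level, 9.29 ± 0.08 in the wild type and 9.31 ± 0.05 in the double knockout, therefore differed by less than the SD between arrays within a genotype.

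Marker genes of several cell types were also read on wild-type replicate 6. The erythroid markers measured, 8 of 10, averaged 11.34 on it and 11.53 to 11.78 on the other arrays. The intestinal markers, 4 of 4, averaged 7.94 against 6.45 to 6.89, and the stellate cell markers, 5 of 5, averaged 8.96 against 8.67 to 8.90. The macrophage markers, 6 of 6, averaged 9.001 against 9.005 to 9.25. These 4 lists lay outside the range of the other arrays. The exocrine pancreas markers, 8 of 9, averaged 10.93, inside the range of 7.48 to 11.23. Hepatocyte markers averaged 13.15 on it, within the range of the other arrays (12.83 to 13.20). Between genotypes, B cell markers (7 of 8) were 8.21 ± 0.07 in the wild type and 7.99 ± 0.10 in the double knockout, and neutrophil markers (8 of 8) were 11.31 ± 0.07 and 11.15 ± 0.06. The part of these cells, or of array spread, in the members' values was not tested.

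**Figure D3:**
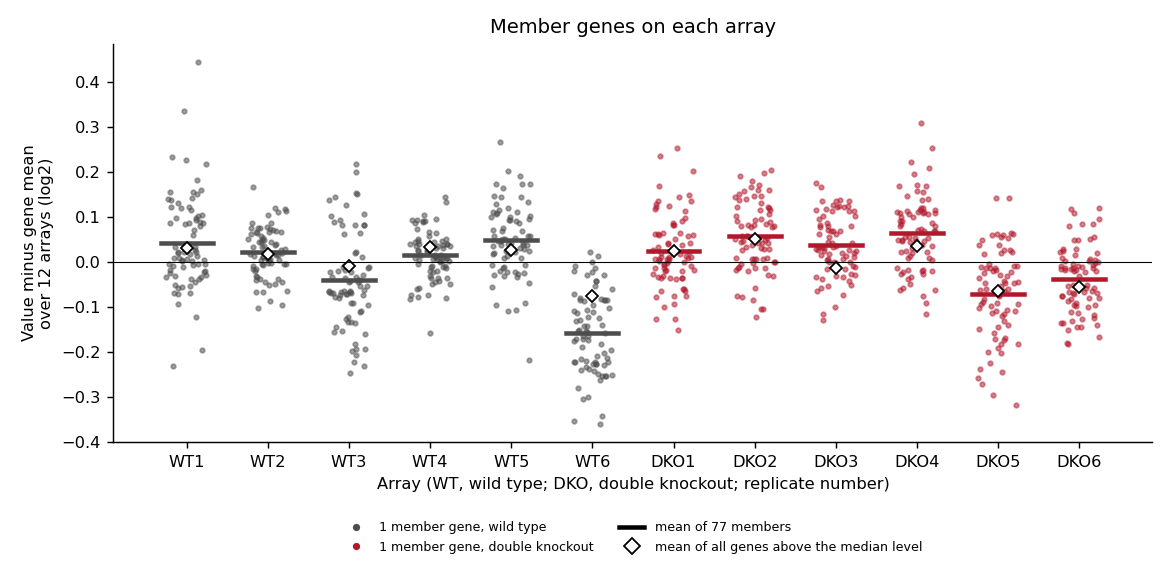
Each member's value minus its own mean over the 12 arrays (log2, y axis) on each array (x axis; WT, wild type; DKO, double knockout), with a bar for the mean of the 77 members and a diamond for the mean of all genes above the median level. The member mean is -0.16 on WT6, with 74 of 77 members below their own mean, and -0.071 on DKO5.

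Within a genotype, the members varied about as much as other well-measured genes. Their pooled SD had a median of 0.10, against 0.10 for all genes above the median level and 0.072 for cytosolic ribosomal proteins. The steadiest were Mrps24 (0.050), Mrps2 (0.053) and Mrps15 (0.055), homologues of bacterial small subunit proteins. The most variable were Mrpl49 (0.18), Mrps26 (0.17) and Mrps28 (0.17). For Mrpl49 the wild-type values ran from 9.94 through a median of 10.16 to 10.62, the last on replicate 1, and the double-knockout values from 9.99 through 10.14 to 10.24. Its difference of -0.08 (SE 0.09) came to 0.0015 without wild-type replicate 1.

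In the large subunit, 37 of 50 members had a higher mean in the double knockout and 13 a lower one, with a median of 0.030. Without wild-type replicate 6, these were 24 and 26, with a median of -0.0047. Members were also split by whether the ribosome nomenclature counts them as bacterial or as mitochondria-specific proteins, and it counts Mrps18a and Mrps18b as mitochondria-specific although both are related to bacterial S18. The 29 bacterial-type members had 23 higher and a median of 0.035, and the 21 mitochondria-specific members had 14 higher and a median of 0.0078. Without wild-type replicate 6, these were 15 of 29 with a median of 0.0016 and 9 of 21 with a median of -0.017. None passed the adjusted test in either class.

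Mrpl55, a large subunit protein without a bacterial counterpart, had the smallest p of all members. Its wild-type values ran from 9.06 through a median of 9.23 to 9.27, and its double-knockout values from 9.24 through 9.31 to 9.35. All but 1 of the double-knockout values exceeded the highest wild-type value, and the exception, replicate 6, fell inside the wild-type range. The difference was 0.10 (SE 0.04, 95% interval 0.0060 to 0.19, unadjusted p = 0.038 with limma, adjusted p = 0.99), and it kept its direction in all 19 alternative settings, from 0.069 to 0.11.

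Mrpl52, also specific to mitochondrial ribosomes, ran from 10.04 through 10.16 to 10.29 in the wild type and from 10.16 through 10.22 to 10.32 in the double knockout (difference 0.08, SE 0.05). Mrpl32, a homologue of bacterial L32 that is trimmed by a mitochondrial protease before it joins the ribosome, ran from 8.67 through 8.87 to 9.12 and from 8.80 through 8.95 to 9.17 (difference 0.13, SE 0.08). The groups overlapped widely for both genes. For Mrpl32, wild-type replicate 5 and replicates 1 and 2 of the double knockout were all above 9.1, and the other arrays lay below 9.0. Its difference ranged from 0.093 to 0.21 over the alternatives.

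Mrps30, which despite its symbol lies in the large subunit, had the lowest difference of all members. Its wild-type values ran from 7.31 through 7.66 to 7.79 and its double-knockout values from 7.29 through 7.55 to 7.61. The lowest wild-type value was on replicate 6 and the lowest double-knockout value on replicate 5, the same arrays that were low for the members as a group. The difference was -0.11 (SE 0.07, unadjusted p = 0.16 with limma) and -0.17 (SE 0.06, unadjusted p = 0.011, adjusted p = 0.80) without wild-type replicate 6. Mrpl37, a related large subunit protein, ran from 10.46 through 10.50 to 10.57 and from 10.41 through 10.49 to 10.62, with a difference of -0.01 (SE 0.04).

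After Mrps30, Mrpl38 and Mrpl16 had the smallest p on the lower side. Mrpl38, specific to mitochondrial ribosomes, ran from 9.76 through 9.85 to 9.95 in the wild type and from 9.61 through 9.78 to 9.89 in the double knockout (difference -0.07, SE 0.05), and 3 double-knockout values lay below the lowest wild-type value. Mrpl16, a homologue of bacterial L16, ran from 9.18 through 9.40 to 9.45 and from 9.13 through 9.30 to 9.43 (difference -0.06, SE 0.06). The groups overlapped for both.

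Mrpl36, a small zinc-binding homologue of bacterial L36, had a difference of -0.04 (SE 0.06), which was 0.044 without the 4 arrays of narrower spread. Mrpl44, which has an RNase III-like fold, had -0.05 (SE 0.06). Mrpl12, which forms the stalk that binds translation factors, was 10.06 in the median of both genotypes, with a difference of 0.02 (SE 0.07). Mrpl45, near the mouth of the exit tunnel at the inner membrane, ran from 8.70 to 9.00 in the wild type and from 8.70 to 8.98 in the double knockout (difference 0.0067, SE 0.07). The wild-type values of Mrpl12 ran from 9.89 to 10.16 and its double-knockout values from 9.88 to 10.26, so the genotypes overlapped for both genes.

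In the small subunit, 19 of 26 members had a higher mean and 7 a lower one, with a median of 0.027. Without wild-type replicate 6, these were 13 and 13, with a median of 0.0066. The 16 bacterial-type members had 11 higher and the 10 mitochondria-specific ones, Mrps18b among them, had 8 higher, and none passed the adjusted test. Without wild-type replicate 6, these were 8 of 16 and 5 of 10.

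Mrps21, a homologue of bacterial S21, had wild-type values from 11.13 through a median of 11.27 to 11.42 and double-knockout values from 11.31 through 11.39 to 11.40. The double-knockout arrays were tightly grouped, above every wild-type array except replicate 1, which was the highest of all 12. The difference was 0.10 (SE 0.05, 95% interval 0.0051 to 0.20, unadjusted p = 0.041 with limma, adjusted p = 0.99). It was 0.13 without wild-type replicate 1 and 0.076 without wild-type replicate 3, the lowest array.

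Mrps10, a homologue of bacterial S10, ran from 8.90 through 8.98 to 9.01 in the wild type and from 8.91 through 9.07 to 9.13 in the double knockout (difference 0.08, SE 0.05). Double-knockout replicates 3 to 6 exceeded the highest wild-type value, while replicates 1 and 2 lay within their range. Without the 4 arrays of narrower spread, 3 of which are among those replicates, the difference was 0.0092. Mrps26, a mitochondria-specific protein, ran from 7.06 through 7.15 to 7.63 and from 7.25 through 7.38 to 7.49. Its difference of 0.14 (SE 0.09) was 0.22 without wild-type replicate 1, which lay above all the other arrays.

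**Figure D4:**
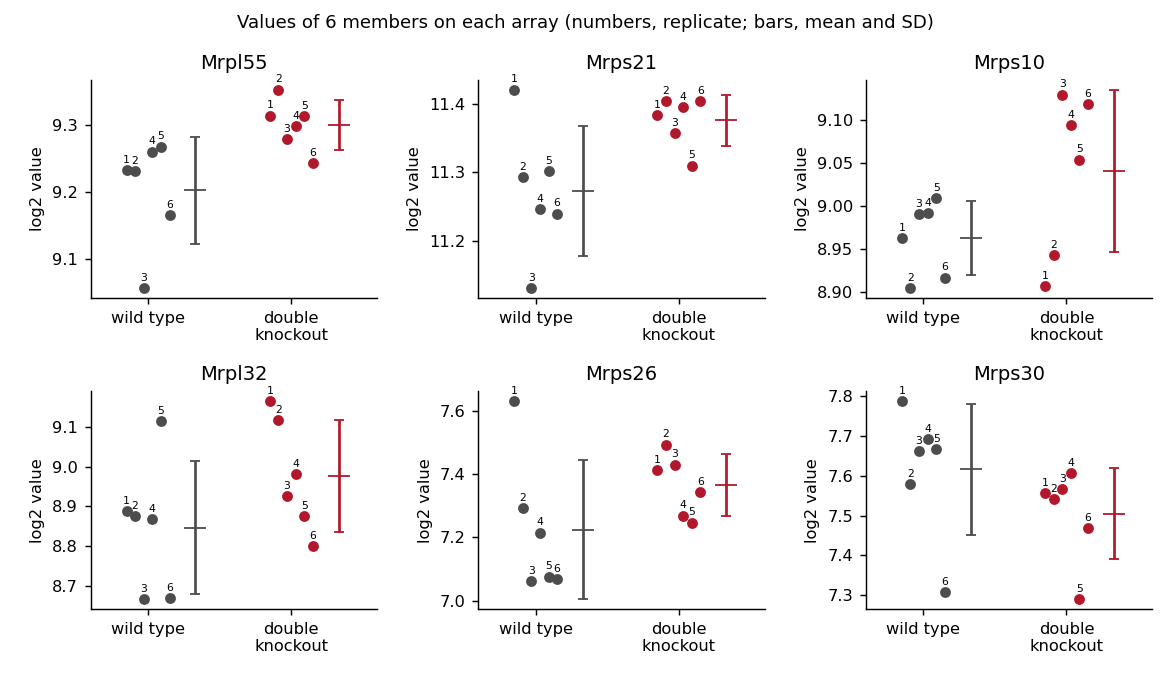
Log2 values (y axis, a separate scale in each panel) of 6 members on the wild-type and double-knockout arrays, with the replicate number beside each point and bars for the mean and SD of 6 arrays. The 3 members with the smallest p on the higher side are Mrpl55, Mrps21 and Mrps10, Mrpl32 and Mrps26 have the highest estimates, Mrps30 has the lowest, and the genotypes overlap in every panel.

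Mammals have 3 homologues of bacterial S18, which sit at different places in the ribosome. Mrps18a, which sits in the large subunit, ran from 9.50 through 9.67 to 9.77 in the wild type and from 9.56 through 9.65 to 9.76 in the double knockout (difference 0.0045, SE 0.05). Mrps18b, in the small subunit, ran from 10.18 through 10.38 to 10.48 and from 10.30 through 10.43 to 10.57 (difference 0.05, SE 0.06). Mrps18c, also in the small subunit, ran from 9.09 through 9.51 to 9.66 and from 9.34 through 9.40 to 9.52 (difference -0.06, SE 0.08). The groups overlapped for all 3. Mrps18c had 1 low wild-type array, replicate 6, and without it the difference was -0.13 (SE 0.05, unadjusted p = 0.015 with limma, adjusted p = 0.80).

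Mrps12, a homologue of the decoding-site protein S12, ran from 7.45 through 7.61 to 7.88 and from 7.56 through 7.70 to 7.80 (difference 0.06, SE 0.07). Mrps28 ran from 8.52 through 8.85 to 8.98 and from 8.60 through 8.78 to 8.95 (difference 0.01, SE 0.09), and its SD was 0.19 in the wild type and 0.13 in the double knockout. Mrps15, among the steadiest members, ran from 10.88 through 10.95 to 11.08 and from 10.995 through 11.02 to 11.04 (difference 0.06, SE 0.04). Mrps24 and Mrps2 had differences of 0.04 (SE 0.04) and 0.03 (SE 0.04).

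For 8 members, a probe set other than the one used gave a further reading of the same samples. The difference was 0.05 on the probe set used and 0.03 on the other for Mrpl23. It was 0.07 and 0.06 for Mrpl41, 0.06 and 0.05 for Mrpl51, 0.07 and 0.06 for Mrps33, and 0.05 and 0.06 for Mrps36. Only Mrpl47 had opposite signs, 0.03 and -0.05. Mrps5 had -0.03 and -0.08, and Mrpl27 had 0.02 and 0.0045. The reference lists pseudogenes of Mrpl23, Mrpl27, Mrpl48 and Mrps36, and since near-identical copies can hybridise to the same probes, the values of these 4 genes are uncertain. Where the probe sets lie was not checked for any member, so a probe set used for another member may also read a copy.

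Against other ribosomal and mitochondrial genes, the members' differences were of the same small size. Of 67 cytosolic ribosomal protein genes, 57 (85.1%) had a higher mean in the double knockout, with a median of 0.025. Without wild-type replicate 6, 47 did, with a median of 0.015, where the mitochondrial ribosomal median was -0.0025. Of 93 genes of the respiratory chain and ATP synthase, 47 had a higher mean, with a median of 0.00075, and none of the cytosolic ribosomal or respiratory genes passed the adjusted test. Without the 4 arrays of narrower spread, 72 respiratory genes (77.4%) were higher with a median of 0.052, and 40 cytosolic ribosomal genes (59.7%) were higher with a median of 0.0076, against 68.8% and 0.032 for the members. The order of the 3 groups therefore turned with these arrays. On wild-type replicate 6 the cytosolic ribosomal genes averaged -0.079 and the respiratory genes -0.039, both nearer to 0 than the members' -0.16. On double-knockout replicate 5 the respiratory genes averaged -0.14 against -0.071 for the members. No test of a difference between these gene groups was made.

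**Figure D5:**
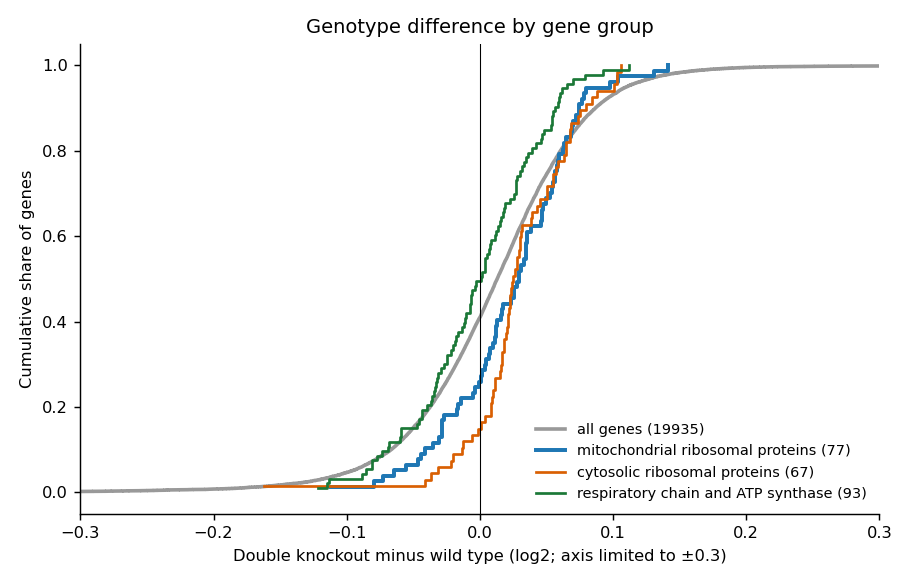
Cumulative share of genes (y axis) by the difference between double knockout and wild type (log2, x axis, limited to 0.3 either way) for all genes and 3 gene groups. The curves of mitochondrial and cytosolic ribosomal protein genes lie to the right of that of all genes around 0 (medians 0.029 and 0.025 against 0.013), and the respiratory genes lie to its left (median 0.00075), an order that turns without the 4 arrays of narrower spread (median 0.052 against 0.011 for all genes).

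Other genes of mitochondrial translation, of mitochondrial DNA and transcription, and of their nuclear regulation were read from 6 gene lists. Of 83 genes listed, 79 were measured, and none passed the adjusted test (limma). Of the 79, 2 had an unadjusted p under 0.05, both higher, against 3.93% of all genes in either direction and 2.64% in the higher direction. In all, 42 had a higher mean (53.2%, against 59.0% of all genes) and 37 a lower one, with a median of 0.0017. Without wild-type replicate 6, 26 were higher and 53 lower, with a median of -0.026. Mitoribosome proteins with other symbols had 1 higher and 3 lower of 4 measured. They included Ptcd3, an RNA-binding protein of the small subunit (difference 0.07, SE 0.05), and Dap3, its GTP-binding protein (-0.09, SE 0.07).

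Assembly and rRNA modification factors had 12 higher and 12 lower of 24. In this list Ybey, an endoribonuclease, ran from 7.22 through 7.37 to 7.42 in the wild type and from 7.41 through 7.47 to 7.53 in the double knockout (difference 0.12, SE 0.04, unadjusted p = 0.019 with limma, adjusted p = 0.99), with a narrow overlap. Ngrn, needed for the stability of the large rRNA, had 0.08 (SE 0.04). Translation factors had 9 higher and 6 lower of 15, with -0.08 (SE 0.06) for Gfm1, an elongation factor, and -0.04 (SE 0.04) for Mtfmt, which formylates the initiator methionine. Aminoacyl-tRNA synthetases had 9 higher and 7 lower of 16, with 0.11 (SE 0.07) for Pars2 and 0.09 (SE 0.06) for Rars2.

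Genes of mitochondrial DNA maintenance and transcription had 6 higher and 5 lower of 11. Tefm, the mitochondrial transcription elongation factor, ran from 7.72 through 7.81 to 7.90 in the wild type and from 7.74 through 8.01 to 8.10 in the double knockout (difference 0.17, SE 0.06, unadjusted p = 0.011 with limma, adjusted p = 0.99). All but 1 of its double-knockout values, that of replicate 5, exceeded the highest wild-type value. Ssbp1, the mitochondrial single-stranded DNA-binding protein, had 0.05 (SE 0.05) on the probe set used and 0.10 with the mean of its 2 probe sets. Nuclear regulators had 5 higher and 4 lower of 9, with 0.05 (SE 0.05) for Yy1 and 0.03 (SE 0.04) for Gabpa, an ETS-family subunit.

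Split by the promoter motifs, the members' differences overlapped throughout. The 8 members with an NRF1 core had 7 higher and a median of 0.051, against 44 of 60 and 0.027 for those without. The 25 members with an ETS core had 19 higher and a median of 0.053, against 32 of 43 and 0.028. For the YY1 core these were 9 of 13 with 0.023 and 42 of 55 with 0.034. None of these splits was tested.

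The genes that start head to head with members also had small differences. Of the 20 such neighbours measured, 2 were members themselves, Mrpl46 and Mrps11. None of the 20 had an adjusted or an unadjusted p under 0.05 (limma), against 3.93% of all genes at the latter. The 18 that were no members had 13 higher means and 5 lower ones, against 59.0% higher among all genes, with a median of 0.014. Mrpl46 and Mrps11, from the shared stretch printed above, had differences of 0.03 (SE 0.08) and 0.03 (SE 0.05). Sars2, beside Mrps12, had -0.06 (SE 0.06), Twnk, beside Mrpl43, had 0.0041 (SE 0.06), and Ndufb5, beside Mrpl47, had 0.05 (SE 0.06). Each lay within the spread between arrays.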

How the data were processed

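RNA was labelled from 250 ng of total liver RNA with the Ambion WT Expression Kit, per the labels' protocols. The values the authors deposited are log2 levels of probe sets, made with Affymetrix Expression Console per the submitters' processing notes. Not given in the sources used here are the version, algorithm and genome build. Of 28815 probe sets, 21780 were listed with 1 gene, 1605 with several (not used) and 5430 were unnamed here. Each gene was represented by its brightest probe set on average. Genotypes were compared with limma 3.58.1 (lmFit, eBayes; R 4.3.3) without covariates, with Benjamini-Hochberg adjustment over 19935 genes at 0.05, and the script was tested on simulated data. The number of arrays limits the precision.

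Replicate numbers 1 to 6 occur in both genotypes. Deviations of same-numbered arrays correlated at -0.18 to 0.49, with 5 of the 6 above 0.1, and 4 wild-type arrays were best matched to their own number. The labels do not state a pairing, and these values do not decide whether there was one. The main fit took the arrays as unpaired, and a fit with a replicate block is among the alternatives.

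Named were the 6 members with the smallest p on either side, those with the 3 largest and 3 smallest SDs, those with over 1 probe set, selected structural members and 2 genes per list. Members and lists were chosen with earlier results of these data known. Alternatives were quantile normalization, a level filter, a trended robust prior, array weights, a replicate block, the mean of all probe sets, and leaving out arrays.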

Additional observations from a re-analysis of the deposited data

Results flagged for a closer look

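In 4 of 92 groups of 6 values, 1 array lay far from the other 5 by Dixon's criterion, which chance meets in about 1 in 20 groups. All 3 in members were on wild-type replicate 6: Mrps33, a mitochondria-specific small subunit protein, was 8.52 there and 8.69 to 8.79 on the remaining arrays of that genotype. Mrpl47, a homologue of bacterial L29, was 7.17 there and 7.38 to 7.48 on the others. Mrps18c was 9.09 there and 9.46 to 9.66 on the others. Tefm was 7.74 on double-knockout replicate 5 and 7.98 to 8.10 on the other double-knockout arrays.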

How the results depend on the processing

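No member had an adjusted p under 0.05 (limma) in any of the 19 alternatives. The replicate block gave 2 genes with an adjusted p under 0.05 in place of 3 and no member, and in 4 of 6 cases the best-matching double-knockout array had the wild-type array's own number. Leaving out 1 array at a time gave 2 to 6 such genes (6 without double-knockout replicate 2), 38 to 64 members with a higher mean, 13 to 39 with a lower mean, and a member median of -0.0025 to 0.047. The count of members with a lower mean was 31 with array weights and 13 when replicate 5 or 6 of the double knockout was left out, and 39 without wild-type replicate 6.

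Directions turned for some named genes with small differences. Without the 4 arrays of narrower spread, Macroh2a2 was 0.095, Mrpl36 0.044, Mrpl41 -0.038, Mrps5 0.021, Mrpl27 -0.0066, Mrps18a -0.0077, Mrps18b -0.035, Mrps12 -0.017 and Mtfmt 0.013. With array weights, Mrps28 was -0.011, Mrpl27 -0.0076 and Mrpl45 -0.0033. The mean of all probe sets gave -0.0071 for Mrpl47. Over single arrays left out, the ranges were -0.17 to 0.0064 for Macroh2a2, -0.14 to 0.0015 for Mrpl49, -0.039 to 0.052 for Mrps28, -0.0098 to 0.074 for Mrpl47, -0.026 to 0.037 for Mrpl27, -0.027 to 0.028 for Mrps18a, -0.039 to 0.0038 for Mrpl37, -0.024 to 0.052 for Mrpl12 and -0.020 to 0.041 for Mrpl45. The cause was not tested. The level filter left 71 members, with no value for Mrps12, Mrps17, Mrps26, Mrps30, Mrpl44 and Mrpl47.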
